A study of Mus musculus with 2 samples.

Results

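The tissue-resident macrophage identity genes are 10 genes by which macrophages that live in organs are told from macrophages freshly made from blood monocytes: Timd4, Lyve1, Folr2, Vsig4, Siglec1, Spic, Gata6, Adgre4, Cd5l and Cd209f. They were found on the array through the transcript accession of each gene probe, and all 10 were represented, by 11 probes, among 22910 genes that could be named. Siglec1 had 2 probes and the other 9 genes had 1 probe each, and every probe was printed in 1 spot. RNA came from 2 cultures of C57BL/6 bone marrow, both labelled male, both grown with 100 ng/ml recombinant human M-CSF, and neither with a stated age or a genetic change. The primary macrophages were monocyte-derived cells labelled as day 5 of culture. The self-renewing macrophages were taken after passage 4, when growing colonies had replaced the dying primary cells, and were used as bulk cells rather than as clones according to the methods. The question put to the arrays was which genes set the self-renewing culture apart, and here it is asked of the identity genes.

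Resident macrophages are seeded in part before birth and renew themselves in place, and each organ imposes its own set of genes on them. The identity genes include receptors that bind ligands or particles (Timd4, Folr2, Siglec1, Vsig4, Lyve1 and Cd209f), an adhesion receptor of the F4/80 family (Adgre4) and a secreted scavenger protein (Cd5l). The rest are transcription factors tied to macrophages of certain organs, Spic to those of the splenic red pulp among others and Gata6 to those of the peritoneal cavity.

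Windows of 250 bases before the annotated start were read from RefSeq (assembly GRCm38.p6), and 8 such windows for 7 of the 10 genes were used. The windows used held none for Lyve1, Siglec1 and Gata6, which does not show that RefSeq lists none for them. For the identity genes, the chromosome that carries Gata6 was left out of the search. It was kept in the larger set of windows used for comparison below. The windows of the 4 genes whose signal could be measured in both cultures and that had a window are printed 5′ to 3′ on the strand of the gene, since these genes carry the differences described further on. Capitals mark matches on either strand to GAGGAA (its reverse complement is TTCCTC), the core bound by PU.1 and related ETS factors, to TGCTGA (reverse complement TCAGCA), the core of the site bound by c-Maf, or to AGGTCA (reverse complement TGACCT), the site of a single nuclear receptor.
Adgre4 (chr17:55749734-55749983, plus strand): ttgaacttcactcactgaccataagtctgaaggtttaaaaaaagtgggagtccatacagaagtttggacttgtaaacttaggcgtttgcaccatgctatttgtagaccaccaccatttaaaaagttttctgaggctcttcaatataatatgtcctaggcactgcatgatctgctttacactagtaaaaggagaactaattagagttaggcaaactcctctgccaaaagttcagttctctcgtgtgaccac
Cd5l (chr3:87357631-87357880, plus strand): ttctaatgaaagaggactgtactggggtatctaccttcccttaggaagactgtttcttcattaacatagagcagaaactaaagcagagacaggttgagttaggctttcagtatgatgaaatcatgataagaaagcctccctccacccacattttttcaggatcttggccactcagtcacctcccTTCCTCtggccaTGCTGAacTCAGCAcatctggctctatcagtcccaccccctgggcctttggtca
Folr2, first start (chr7:101857191-101857440, minus strand): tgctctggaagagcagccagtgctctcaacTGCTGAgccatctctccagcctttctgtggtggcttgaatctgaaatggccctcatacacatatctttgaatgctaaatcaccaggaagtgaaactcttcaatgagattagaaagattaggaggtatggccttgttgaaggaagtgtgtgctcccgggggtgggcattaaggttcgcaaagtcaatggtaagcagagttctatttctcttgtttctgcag
Folr2, second start (chr7:101845332-101845581, minus strand): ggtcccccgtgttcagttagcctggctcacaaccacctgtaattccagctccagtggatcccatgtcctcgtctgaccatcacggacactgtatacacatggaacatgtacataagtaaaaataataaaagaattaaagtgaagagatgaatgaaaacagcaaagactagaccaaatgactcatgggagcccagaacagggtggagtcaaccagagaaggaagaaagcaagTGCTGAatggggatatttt
Spic (chr10:88683024-88683273, minus strand): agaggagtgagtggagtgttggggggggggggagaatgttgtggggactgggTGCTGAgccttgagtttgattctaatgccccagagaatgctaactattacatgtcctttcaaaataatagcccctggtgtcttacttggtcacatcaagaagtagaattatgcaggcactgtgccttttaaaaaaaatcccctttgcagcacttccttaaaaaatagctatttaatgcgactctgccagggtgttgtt
The window of Cd5l held GAGGAA on the reverse strand at position -66, counted from the annotated start. It held TGCTGA at position -54 and, on the reverse strand, at position -46. TGCTGA also lay at -220 and -19 before the first and second start of Folr2 and at -198 before Spic, and the window of Adgre4 held none of the 3 motifs. Over all 8 windows, TGCTGA was found in 5 (both windows of Folr2 among them), GAGGAA in 2 and AGGTCA in 1. Of 32851 windows of the same length, 16.1%, 23.3% and 14.0% held them. No matches of different motifs overlapped. A match describes letters in a window and not a bound site.

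Signals are background-corrected intensities of the 1-colour array in arbitrary units. Differences are log2 of the self-renewing over the primary signal after each array was scaled to the 75th percentile of its gene probes (433.6 in primary and 446.1 in self-renewing cells). With 1 array per cell type no replicate check was possible and no test was made, so values below carry only the scanner software's error for the spot. A gene is called detected where its probe was flagged well above background, as 61.5% of the gene probes were on the primary and 58.5% on the self-renewing array. Where only 1 array detected a gene, the difference is a bound, written as at least N-fold, against the detection limit of the other array, the lowest intensity with that flag (11.8 in primary and 13.2 in self-renewing cells), or against the probe's own intensity if higher. Although both labels give male mice, the Y-linked genes Eif2s3y, Kdm5d, Ddx3y and Uty were detected in the self-renewing cells alone (132.4 to 1913 in intensity), and Xist in the primary cells alone (487.5). By these genes the primary cells read as female, against their label, and the self-renewing cells as male. A difference in sex therefore cannot be told apart from cell type for any gene, and Vsig4 is the X-linked gene among the 10. All 11 macrophage lineage markers listed here, Adgre1 and Cd68 among them, were detected on both arrays, and 9 of them lay within 2-fold.

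Of the 10 identity genes, 5 were detected in both cultures, 2 in the primary cells only and 3 in neither. Of all 22910 named genes, 14003 were detected in both, 1182 in the primary cells only, 331 in the self-renewing cells only and 7394 in neither. Among the 5 measured in both, Adgre4, Folr2 and Siglec1 reached 2-fold on the higher side in the self-renewing cells, Spic was higher by less than 2-fold and Cd5l was lower by over 2-fold. Of the 14003 genes measured in both cultures, 4.20% were higher and 5.58% lower by 2-fold or more. At 5-fold, Adgre4 remained among the higher genes (0.786% of all genes) and Cd5l among the lower genes (1.44%). The median log2 difference of the 5 genes was 1.04, where it was 0.01 over all genes measured in both. Over genes detected on at least 1 array, 739 of 15516 (4.76%) were higher and 1300 (8.38%) lower by 2-fold, and at 5-fold 1.02% and 2.93%. Higher genes made up 36.2% of the 2-fold differences, and 49.2% when the authors' own scaled values were used, which moved the median over all probes by 0.19 log2. The 5 measured genes kept their direction on those values.

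**Figure D1:**
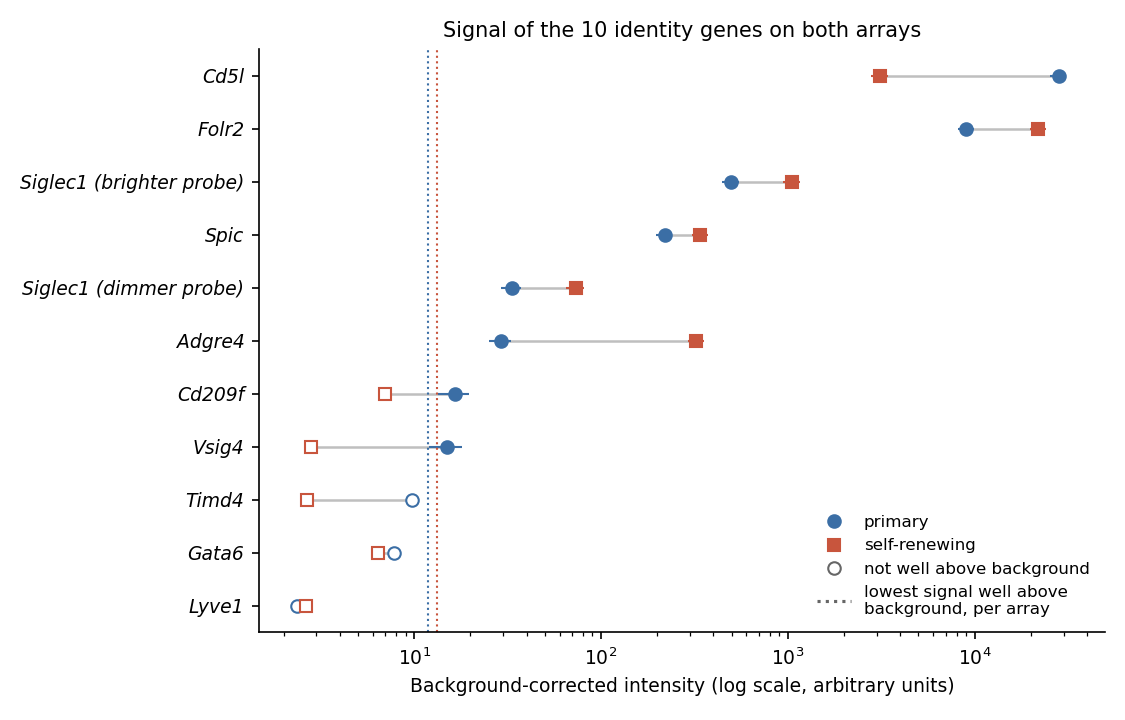
Background-corrected intensity (arbitrary units, log axis) of the 11 probes for the 10 identity genes in the primary (circles) and self-renewing cells (squares). Bars on filled points are the scanner software's error for the spot (where wider than the point), hollow points are not detected and have no bar, and dotted lines mark each array's detection limit. Folr2, Siglec1, Spic and Adgre4 lie to the right in the self-renewing cells and Cd5l to the left, while Timd4, Gata6 and Lyve1 are hollow on both arrays.

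Folr2 encodes folate receptor beta, a folate-binding surface protein that marks many resident macrophages. Its intensity was 9033 ± 903 in the primary and 21848 ± 2185 in the self-renewing cells (scanner error, 1 spot each), 2.35-fold higher. The log2 difference was 1.23 ± 0.20, with a 95% interval from spot error alone of 0.83 to 1.63. The probe was far above background in both cultures, and 393 of the 14003 genes measured in both (2.81%) were at least as much higher. Among its relatives, Folr1, the folate receptor of epithelia, stood at 314.7 and 326.3 (log2 difference 0.01), and Izumo1r, the egg receptor for sperm and a marker of some T cells, at 109.6 and 148.7 (0.40). Neither reached the 2-fold difference of Folr2.

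Siglec1 encodes sialoadhesin (CD169), a sialic acid receptor of lymph node, splenic marginal zone and bone marrow macrophages. Its brighter probe read 496 ± 49.7 in the primary and 1050 ± 105 in the self-renewing cells, a log2 difference of 1.04 ± 0.20 (0.64 to 1.44). The dimmer probe read 33.2 ± 4.21 and 73.1 ± 7.85, a log2 difference of 1.10 ± 0.24 (0.63 to 1.57). Both probes were thus higher in the self-renewing cells by a like amount, 2.06-fold and 2.14-fold. The gene lay close to the 2-fold limit and was under it, at 0.83 log2, when the background was corrected by normexp. Of 7 other Siglecs, all measured in both cultures, 0 were 2-fold higher and 2 were lower. These were Siglecf, the eosinophil and alveolar macrophage Siglec (188.7 and 20.46, 9.49-fold lower), and Mag, the myelin-associated Siglec (198.1 and 42.88, 4.75-fold lower). Cd33, Siglece, Cd22, Siglecg and Siglech lay within 2-fold, at -0.42 to 0.31 log2, though another probe of Cd22 was at -1.83. Cd22, Siglecg and Siglech each also had a probe that was not detected on either array.

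Adgre4 encodes FIRE (EMR4), an adhesion receptor of resident macrophages and of some monocytes. Its intensity was 29.0 ± 3.81 in the primary and 324 ± 32.5 in the self-renewing cells. The signal was 10.9-fold higher, a log2 difference of 3.44 ± 0.24 (2.97 to 3.91), and 36 of 14003 genes (0.257%) were at least as much higher. The primary signal stood only 1.29 log2 above the detection limit of that array, against 4.62 log2 in the self-renewing cells. With normexp on the median spot signals and an offset of 50 added to every spot, the difference was 2.04 log2 and so under 5-fold, and that of Cd5l (-3.20) was then the wider. The other listed receptors of the family differed less: Adgre1, the F4/80 antigen itself, read 65170 and 96314 (log2 difference 0.52), and Adgre5 (CD97) read 2167 and 1634 (-0.45).

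Cd5l encodes AIM, a secreted scavenger protein of the cysteine-rich group B that macrophages of liver, spleen and peritoneum release and that blocks apoptosis. Its intensity was 28113 ± 2811 in the primary cells and 3115 ± 312 in the self-renewing cells, 9.28-fold lower. The log2 difference was -3.21 ± 0.20 (-3.61 to -2.81), and 104 of 14003 genes (0.743%) were at least as much lower. It was the only one of the 5 genes measured in both cultures that was lower in the self-renewing cells, and it was still 7.89 log2 above the detection limit there. Of the related receptors, Cd163, the hemoglobin scavenger, read 242.4 and 67.23 (3.71-fold lower), Cd5 read 122.4 and 56.97 (2.21-fold lower) and Cd6 read 87.09 and 85.43. As bulk RNA was measured, fewer cells that make a transcript and less transcript per cell cannot be told apart for any gene.

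Spic encodes an ETS factor needed for the iron-recycling macrophages of the splenic red pulp. It read 219 ± 22.1 in the primary and 340 ± 34.1 in the self-renewing cells, a log2 difference of 0.59 ± 0.21, with an interval from spot error alone that began at 0.19. The gene was present in both cultures and 1.51-fold higher, but 1434 of 14003 genes (10.2%) were at least as much higher. Its relative Spi1, which encodes the macrophage master factor PU.1, read 662.5 and 799.7 (log2 difference 0.23). Spib, the family member of plasmacytoid dendritic and B cells, was detected in the primary cells only, at 25.87, at least 2.02-fold above the bound in the self-renewing cells.

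**Figure D2:**
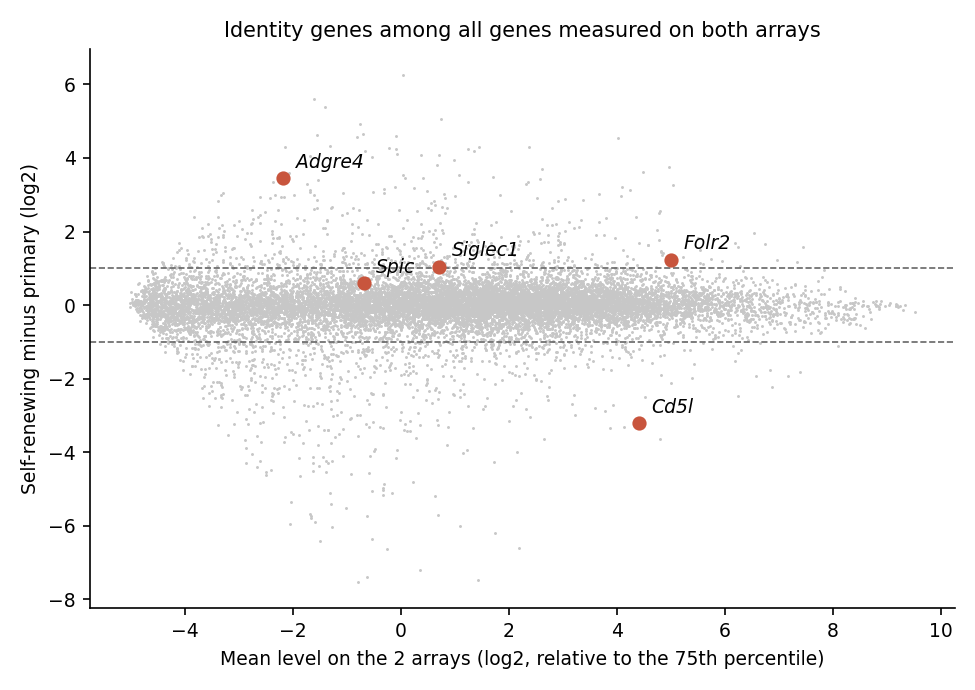
Log2 difference between self-renewing and primary cells (vertical axis) against the mean log2 level relative to the 75th percentile (horizontal axis) for the 14003 genes detected on both arrays (grey), with the 5 identity genes in red and dashed lines at 2-fold. Adgre4 at 3.44 and Cd5l at -3.21 lie away from the bulk of the genes, Folr2 at 1.23 and Siglec1 at 1.04 lie just past the upper line, and Spic at 0.59 lies among them.

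Vsig4 and Cd209f were detected in the primary cells only, and dim there. Vsig4, the complement receptor CRIg of Kupffer cells and large peritoneal macrophages, read 15.0 ± 2.97, at least 1.18-fold above the bound. In the self-renewing cells its spot was not significantly above background, and the software put its own error estimate (2.81) in place of a signal. Cd209f, a lectin of the DC-SIGN cluster found on some resident macrophages, read 16.5 ± 3.15 in the primary and 6.98 ± 3.09 in the self-renewing cells, where it was significantly above background but not well above it. Its bound was at least 1.29-fold. The bounds are small because both primary signals lay within 0.49 log2 of the detection limit, so at this signal no 2-fold decrease was detectable. Passing the background filter on the primary array alone fixed the direction of both bounds. Of 6 other lectins of the Cd209 cluster, Cd209d (130.8 and 149.4) and Cd209g (224.1 and 248.0) were measured in both cultures at log2 differences of 0.15 and 0.11. Each had another probe that was not detected, and near-identical copies in this cluster may share signal. Cd209a had a bound of -0.64 log2 by the probe that stood for it and of -1.18 by its other probe (29.03 and 2.996), and 3 of the 6 were in neither culture.

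Timd4, Gata6 and Lyve1 were not detected in either culture. Timd4 encodes TIM-4, the phosphatidylserine receptor for apoptotic cells and the usual mark of long-lived resident macrophages. Its spot read 9.72 ± 2.61 in the primary cells, significantly but not well above background, and was not significantly above background in the self-renewing cells. Gata6, the factor that directs large peritoneal macrophages, read 7.82 ± 2.91 and 6.42 ± 3.24, in both cases significantly but not well above background. Lyve1, a hyaluronan receptor of perivascular macrophages and lymphatic endothelium, was not significantly above background in either culture. For these 3 genes each array sets only an upper limit, its detection limit. Havcr2 (TIM-3), a checkpoint receptor of the TIM family, read 1570 and 2300 (log2 difference 0.51), while Havcr1 and Timd2 were in neither culture. Of 5 other GATA factors, Gata5 read 516.8 and 555.6 (0.06), Gata1, the erythroid factor, had a bound of -0.65 log2, and 3 were in neither culture. Of the other hyaluronan receptors, Cd44 read 10703 and 8069 (-0.45), Stab1 read 21589 and 12662 (-0.81) and Stab2 read 152.9 and 163.2 (0.05), though another probe of Stab2 was at -2.70 log2.

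Over all 33 family relatives listed here, 25 were detected on at least 1 array, of which 0 were at least 2-fold higher and 5 were lower (20.0%), with a median of -0.02, the same as over all genes on at least 1 array. Over all genes on at least 1 array the shares were 4.76% higher and 8.38% lower.

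The genes were next set beside 13 factors reported to act on them. Bach1 restrains Spic until heme removes it, liver X receptors (Nr1h3 and Nr1h2) with their partner Rxra act on Cd5l and on splenic and liver macrophage genes, retinoic acid receptors and Wt1 act on Gata6, and Id3, Maf, Zeb2, Irf8 and PU.1 act on macrophage identity in several organs. Of the 13, 11 were measured in both cultures, 2 were higher, 2 were lower and 7 were within 2-fold. Id3, an inhibitor of helix-loop-helix factors that marks Kupffer cells, read 50.82 and 1236, 23.6-fold higher in the self-renewing cells. Rxra read 5590 and 13575, 2.36-fold higher by its brighter probe, though its other probe differed by 0.35 log2. Nr1h3, which encodes LXR alpha, read 855.0 and 74.53, 11.8-fold lower, and its 2 probes gave log2 differences of -3.56 and -3.32. Pparg, the lipid-sensing receptor of alveolar macrophages, read 5021 and 1247, 4.14-fold lower. Nr1h3 and Cd5l were thus both lower in the self-renewing cells, while Nr1h2, which encodes LXR beta, was at 0.27 log2. Bach1 stood at 0.32, Maf at 0.44, Zeb2 at -0.01, Irf8 at -0.07 and Rara at 0.08 log2, and Rarb and Wt1 were in neither culture. These values are side by side only, and no link between a factor and a gene was tested.

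**Figure D3:**
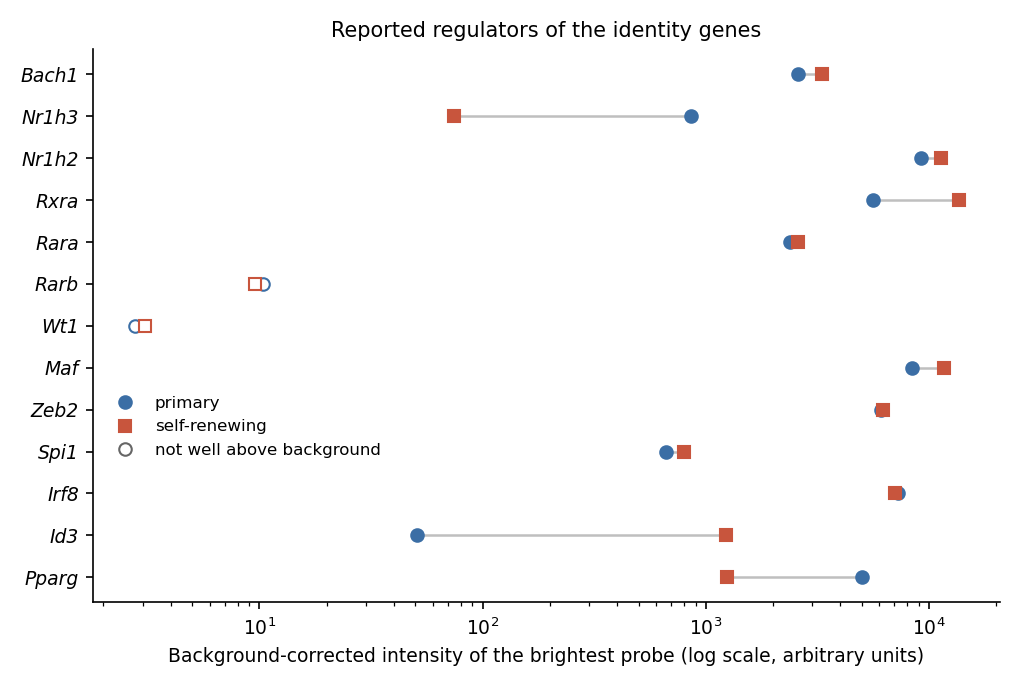
Background-corrected intensity (arbitrary units, log axis) of the brightest probe of 13 factors reported to act on identity genes, in the primary (circles) and self-renewing cells (squares), hollow where not detected. Id3 and Rxra lie to the right in the self-renewing cells, Nr1h3 and Pparg to the left, and the other 7 measured factors differ by less than 2-fold.

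Other genes typical of resident macrophages of 7 tissues, 67 in all, put the 10 identity genes in context. Of 50 that were detected on at least 1 array, 8 (16.0%) were higher and 22 (44.0%) lower by 2-fold or more, where the shares of all genes were 4.76% and 8.38%. The median was -0.68, and -0.28 over the 41 genes detected on both arrays, since a bound for a gene detected in the primary cells alone can only be lower. Of the 7 identity genes on at least 1 array, 3 were higher and 1 was lower, with a median of 0.59, and 1.04 over the 5 on both arrays. With 1 array per cell type neither median has an error. Lower genes outnumbered higher ones past 2-fold in 6 of the 7 tissues, the exception being the Langerhans cell genes, of which 2 were detected.

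Genes of large peritoneal macrophages, to which Gata6, Timd4 and Vsig4 belong, were mostly undetected or lower, with 5 of 12 on at least 1 array, 0 higher and 3 lower (median -1.29). F10, coagulation factor X, read 1722 and 53.43, 33.1-fold lower, Icam2, an adhesion molecule, was 6.01-fold lower and F5, coagulation factor V, at least 2.45-fold lower. Splenic red pulp genes, the group of Spic, were split, with 7 of 7 on at least 1 array, 1 higher and 3 lower (median 0.21). Slc40a1, the iron exporter ferroportin, read 1766 and 6202, 3.41-fold higher. Vcam1, an adhesion molecule, was at least 63.1-fold lower, Axl, a receptor for apoptotic cells, 52.0-fold lower and Cd163 3.71-fold lower.

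Kupffer cell genes, the liver group that shares Vsig4, Timd4 and Cd5l, had 7 of 9 on at least 1 array, 2 higher and 3 lower (median -0.81). The higher ones were Id3 and Id1, a related inhibitor, which was 9.07-fold higher (170.4 and 1590), while Nr1h3 was lower and Fabp7, a fatty acid binding protein, was at least 13.6-fold lower. Genes of LYVE1+ perivascular and interstitial macrophages, which share Lyve1 and Folr2, had 12 of 12 on at least 1 array, 3 higher and 4 lower (median -0.41). Fcna, the lectin ficolin A, read 655.1 and 3025, 4.49-fold higher, while F13a1, coagulation factor XIII A, was at least 200-fold lower, Ednrb, an endothelin receptor, 18.9-fold lower and Pf4, platelet factor 4, 4.72-fold lower. Folr2 and Fcna were thus higher and Lyve1 undetected within the same group.

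Alveolar macrophage genes had a median of -2.10, the lowest of the 7 tissues over genes on at least 1 array but not over genes on both, where the peritoneal genes stood at -2.59, with 10 of 13 on at least 1 array, 0 higher and 7 lower. Chil3, a chitinase-like protein, was at least 306-fold lower (3914 in the primary cells), Siglecf 9.49-fold lower, Itgax, the integrin CD11c, 8.93-fold lower and Abcg1, a lipid exporter, 6.51-fold lower. Microglia genes had 8 of 11 on at least 1 array, 1 higher and 3 lower (median -0.05). Cx3cr1, the fractalkine receptor, was 2.13-fold higher, Tmem119 at least 4.21-fold lower, P2ry12, an ADP receptor, 2.69-fold lower and Fcrls 2.06-fold lower. Langerhans cell genes had 2 of 4 on at least 1 array, and Cd207 (langerin) read 130.9 and 1574, 11.7-fold higher.

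**Figure D4:**
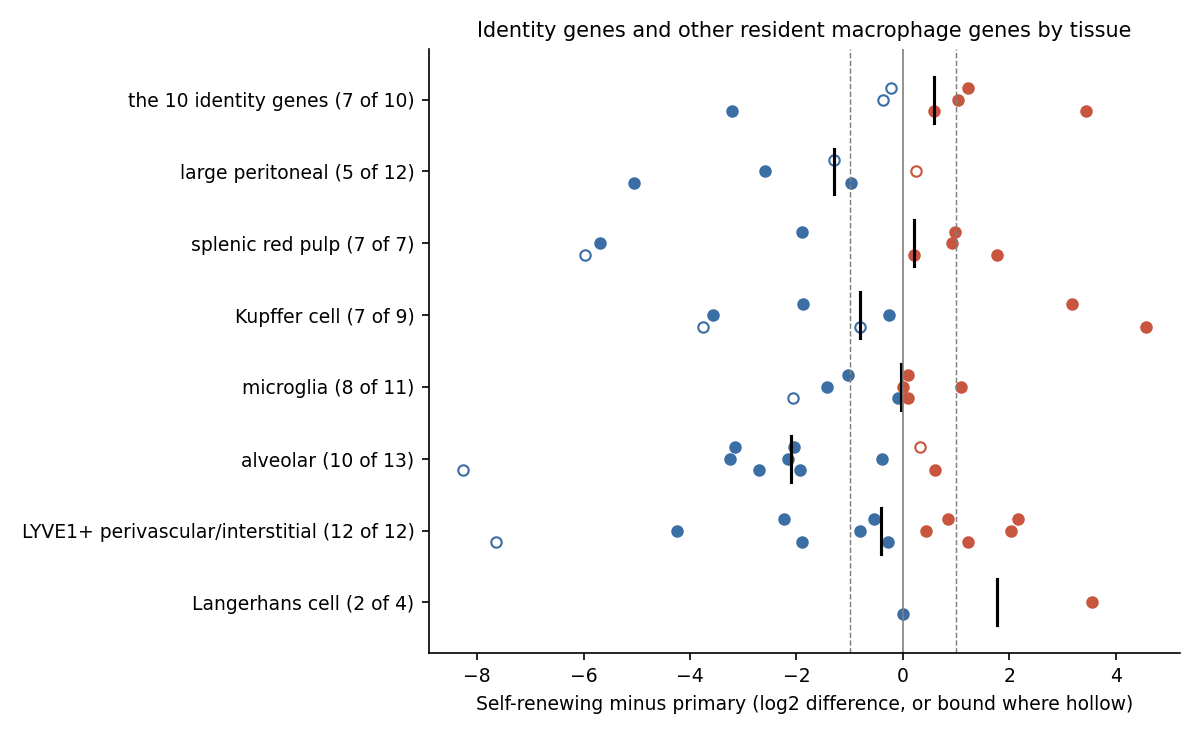
Log2 difference between self-renewing and primary cells for the 10 identity genes and for genes typical of resident macrophages of 7 tissues, 1 point per gene detected on at least 1 array (number of the genes listed in brackets), hollow where the value is a bound. Black bars are medians and dashed lines mark 2-fold. The identity genes have a median of 0.59, and the alveolar genes, with a median of -2.10, lie mostly to the left.

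Markers of other cells that a bone marrow culture can hold also differed between the cultures. Of 10 neutrophil markers, 9 were detected on at least 1 array, and 7 were at least 5-fold lower in the self-renewing cells. S100a9 read 25450 and 4.258, and the summed intensity of the 10 markers was 51709 in the primary and 2931 in the self-renewing cells, of which Elane, within 2-fold, made up 3602 and 2671. Over 8 lists with 49 such genes, 28 were detected on at least 1 array. Of these, 0 were 2-fold higher and 12 were lower, 7 of them neutrophil markers. The shares over all genes on at least 1 array were 4.76% higher and 8.38% lower. The summed intensity of B cell markers was 757 and 41, of dendritic cell markers 281 and 76, of endothelial markers 4656 and 2895, of erythroid markers 597 and 265 and of T and NK cell markers 1080 and 1069. Stromal and mesothelial markers summed to 89 and 118, higher in the self-renewing cells, and mast cell and basophil markers to 24 and 14. These sums add intensities of different probes, undetected ones included. Of the 8 endothelial markers, which bear on Lyve1, Vwf (3062 and 2563), Kdr (241.7 and 187.3) and Pecam1 (82.0 and 108.5) were detected in both cultures, Pdpn (1246) in the primary cells, Cldn5 (19.76) in the self-renewing cells, and Prox1, Flt4 and Tek in neither. The part of any of these cells in the lower signal of Cd5l was not tested.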

How the data were processed

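RNA of 1 culture of primary and 1 of self-renewing macrophages was labelled with Cy3 and hybridised to Agilent mouse arrays. The authors deposited the intensity of each spot as written by Feature Extraction 11.5.1.1, subtracted for background and detrended array by array. A second deposited table holds these intensities after multiplication by a constant (1.071 in primary and 1.186 in self-renewing cells), the choice of which is not given in the sources used here. Where a spot is not significantly above background, the deposited intensity equals the software's error estimate within 2% (12588 of 12589 such gene spots in the primary and 14679 of 14680 in the self-renewing macrophages), so it is a floor rather than a level. Flags for background, outlier and saturated spots (0 gene spots saturated) came with the files.

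Control spots and outlier spots (63 gene spots per array) were removed, spots of 1 probe were averaged, and log2 values were taken relative to the 75th percentile. Probes were named through accessions in a table of GRCm38.p6 (32988 of 56598 probes), and the probe brightest on average (log2 scale) stood for its gene. Arrays and table use different assemblies, so no position of a probe is given. On simulated data, 4-fold changes planted in brighter genes were recovered as calls past 2-fold. Changes of 2-fold, changes in dim genes and bounds were not simulated. Members, lists, thresholds of 2-fold and 5-fold and tests were chosen with earlier results of these data known. The list of regulators was 1 gene longer, and that gene is not reported here or counted. Named are all 10 genes, detected family members and regulators, and up to 4 genes per list with the largest difference past 2-fold, while any further name was picked with its value in view. Alternatives were normexp (offset 50, on median signals), other scalings, other background filters and the mean over probes. Python 3.11.15, pandas 2.3.3 and R 4.3.3 with limma 3.58.1 were used.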

Additional observations from a re-analysis of the deposited data

How the results depend on the processing

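The 5 identity genes measured in both cultures kept their direction under all 7 alternatives, with log2 differences of 1.22 to 1.42 for Folr2, 0.83 to 1.23 for Siglec1, 0.49 to 0.78 for Spic, 2.04 to 3.63 for Adgre4 and -3.23 to -3.03 for Cd5l. For those with a single probe, the other background filters and the mean over probes could not change the value. Only normexp and the other scalings could move these genes. Normexp gave the 2.04 of Adgre4, and the cause was not tested. It left 429 of all genes at least 2-fold higher and 750 lower, in place of 739 and 1300. Without the background filter, Vsig4 stood at -2.46 and Cd209f at -1.29 log2 and, with Timd4 and Cd5l, 4 identity genes were 2-fold lower in place of 1, where all but Cd5l set a primary signal against a floor or near-background signal, and 1192 of all genes were higher and 2336 lower. With detection on both arrays required, 782 genes were lower. The bound of Vsig4 was 0 after quantile normalization. The median of the peritoneal genes was -0.45 with normexp and -2.59 over genes in both cultures, that of the Kupffer cell genes -0.36 and -0.27, and that of the Langerhans cell genes 0.30 without the filter. No paired analysis was possible because both cell types have a single array.

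The number of arrays limits every value. The median SD between spots of a probe was 0.042 and 0.046 log2 on the 2 arrays, and log2 differences from several probes of a gene had an SD of 0.325 (root mean square over 5077 genes), so the gap between Siglec1 and the 2-fold limit is smaller than the spread between probes. Neither measure holds the spread between cultures.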

Other observations

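Inflammatory monocyte genes, the counterpart of the identity genes, were split between the cultures, with 9 of 9 detected on at least 1 array, 2 higher and 3 lower by 2-fold or more in the self-renewing cells and a median of 0.10. Ccr2, the receptor by which monocytes leave the marrow, read 3634 and 37.53 in intensity, 99.6-fold lower. Plac8 was at least 47.7-fold lower and Hp, haptoglobin, 4.04-fold lower. Ly6c2, the monocyte surface antigen, read 5025 and 29296, 5.67-fold higher. Of the 2 probes of Ly6c1, 1 was at 2.56 and the other at -4.42 log2, and near-identical copies of the Ly6c genes may share signal. With the mean over probes the median of the group was -1.35.

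Mertk, a receptor for apoptotic cells common to resident macrophages, read 523.7 and 2520, 4.68-fold higher in the self-renewing cells, and Fcgr1, the antibody receptor CD64, read 5516 and 1675, 3.39-fold lower.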
